A study of Homo sapiens with 42 samples.

Results

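COPB2 is the gene for the beta-prime part of coatomer, the protein shell of COPI vesicles, and its knockdown was followed here in growing IMR90 cells, a line of human fetal lung fibroblasts. The 12 libraries of DMSO-treated IMR90 cells, out of 42 in the series, were used: 4 labelled as shRNA control (shEV in the sample names, called control shRNA below), 4 with COPB2 shRNA 1 and 4 with COPB2 shRNA 2. All 12 cultures received DMSO, stood for 7 days and were then given doxycycline at 1 µg/ml, which induces the vector, and RNA was taken 72 h later, at Day 10. The control libraries share the vehicle and the doxycycline, and what shEV expresses is not given in the sources used here. The COPB2 hairpins sat in a doxycycline-inducible vector with a backbone derived from miR-30. The labels give a replicate number from 1 to 4 but do not say that replicates were separate cultures, so the p-values below measure the spread between these libraries only. The series also holds 12 libraries of IMR90 cells made senescent with bleomycin at 50 µg/ml for 24 h, and 9 libraries of IMR90 ER:RAS cells given DMSO, in which the RAS fusion stays off. Both have libraries with the same control and COPB2 shRNA labels and serve below as further settings. Their 7 days of culture, doxycycline at 1 µg/ml, 72 h of induction and RNA at Day 10 were the same as in the 12 libraries.

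COPI coats vesicles that bud from the Golgi and carry escaped residents and cargo receptors back to the endoplasmic reticulum (ER), and it also acts within the Golgi stack. The coat is built from 7 kinds of subunit and is recruited to the membrane by the small GTPase ARF1. When traffic through the ER and Golgi is disturbed, cells can answer through the unfolded protein response, whose arms run through ATF6, through IRE1 and XBP1, and through the kinase PERK and the transcription factor ATF4. ATF4 is shared with other stress kinases and is known for inducing genes of amino acid uptake, serine and one-carbon synthesis and tRNA charging. Fibroblasts are also heavy secretors of collagen and other matrix proteins, which pass through this route.

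The strands of both hairpins that pair with COPB2 mRNA are shown because the comparison rests on them, with the seed (bases 2 to 8 from the 5′ end) in capitals:
COPB2 shRNA 1: tTAAATATctttacaatgctgt
COPB2 shRNA 2: tAATTGAAcactctaatctgca
Each guide is 22 bases long, and the seeds differ. In the GRCh37 annotation, COPB2 (ENSG00000184432) lies on the minus strand at chr3:139072788-139108578. The guide of shRNA 1 matched coding sequence in exon 11 of 22, at chr3:139088345-139088366, and that of shRNA 2 matched coding sequence in exon 4, at chr3:139097987-139098008. Full-length matches were found in 11 and 15 annotated transcripts, respectively, and all of them belonged to COPB2.

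The 12 libraries held 16199276 to 23597310 counts and between 16691 and 17706 genes with a count. The label of growing cells was read against the bleomycin libraries, on CPM (a gene's count relative to the scaled total of its library) scaled over the whole series. Levels in CPM are scaled over the 12 libraries elsewhere. MKI67, a proliferation marker, lay between 3.71 and 8.12 CPM in DMSO and between 0.0643 and 1.81 CPM after bleomycin, and LMNB1, a nuclear lamin that falls in senescence, between 7.00 and 13.3 CPM against 1.08 and 2.91 CPM. Neither overlapped. TOP2A, another marker of growing cells, did not overlap either (8.89 to 32.4 CPM and 2.63 to 7.83 CPM). The ranges of the cyclin gene CCNB1 did overlap (8.97 to 18.7 CPM and 8.97 to 17.7 CPM). So did those of CDK1 (0.819 to 6.65 CPM in DMSO and 0.145 to 1.21 CPM after bleomycin). All 15 fibroblast markers were detected and tested, and 3 of them (COL1A1, COL1A2 and COL3A1) fell, where 1.65% of all genes tested fell. The summed level of the 15 ran from 23264 to 27626 CPM in the control libraries. It ran from 20213 to 24200 CPM with shRNA 1 and from 22939 to 25658 CPM with shRNA 2. Of 10 epithelial, 8 endothelial and 10 leukocyte markers, 4, 3 and 1 passed the filter on low counts, and 1 of these, VWF, fell (-0.48 ± 0.12, adjusted p = 0.046). The summed level of the epithelial markers was 89.4 to 182 CPM in the control libraries and 77.8 to 147 CPM across both knockdowns. For the endothelial markers it was 23.99 to 37.98 CPM and 24.95 to 33.8 CPM, and for the leukocyte markers 14.3 to 29.3 CPM and 13.2 to 28.2 CPM. From 1 to 5 markers of each of these lists had no count in any library of a group. The part of other cell types in the results below was not tested.

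Libraries with the same replicate number moved together, and for some genes replicate 1 stood apart in all 3 groups. CDKN1A, a cell cycle inhibitor, shows this: its level was 978, 386, 473 and 443 CPM in control replicates 1 to 4, 698, 356, 421 and 371 CPM with shRNA 1, and 882, 414, 488 and 446 CPM with shRNA 2. The deviations of same-numbered libraries from their group means correlated at 0.134 to 0.854 in all 12 pairs of libraries from 2 groups, and 11 of 12 libraries had a same-numbered library as their closest partner. Each knockdown library was therefore compared with the control library of its own number, and the 8 such differences are called matched pairs below. Each control library enters 2 of these pairs, 1 per shRNA, so the 8 are not independent of each other. A gene is called where its adjusted p (edgeR quasi-likelihood test with replicate block, Benjamini-Hochberg over the 13827 genes tested) is under 0.05. Fold changes are log2 values for the mean of both shRNAs unless one shRNA is named, given ± standard error (SE).

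COPB2 was lower in every knockdown library. Its level in control replicates 1 to 4 was 327, 378, 471 and 395 CPM. With shRNA 1 it was 46.5, 49.1, 74.5 and 49.8 CPM, and with shRNA 2 it was 68.6, 56.1, 85.6 and 61.4 CPM. The groups did not overlap: the highest knockdown library stayed far below the lowest control library. COPB2 fell by 2.85 on the log2 scale with shRNA 1 and fell by 2.54 with shRNA 2, to 13.9% and 17.2% of the control level (adjusted p = 2.6e-10 and 9.8e-10). The difference between the shRNAs was 0.31 (95% confidence interval 0.15 to 0.48, adjusted p = 0.057). In bulk RNA, fewer cells carrying a transcript and less transcript per cell cannot be told apart.

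**Figure D1:**
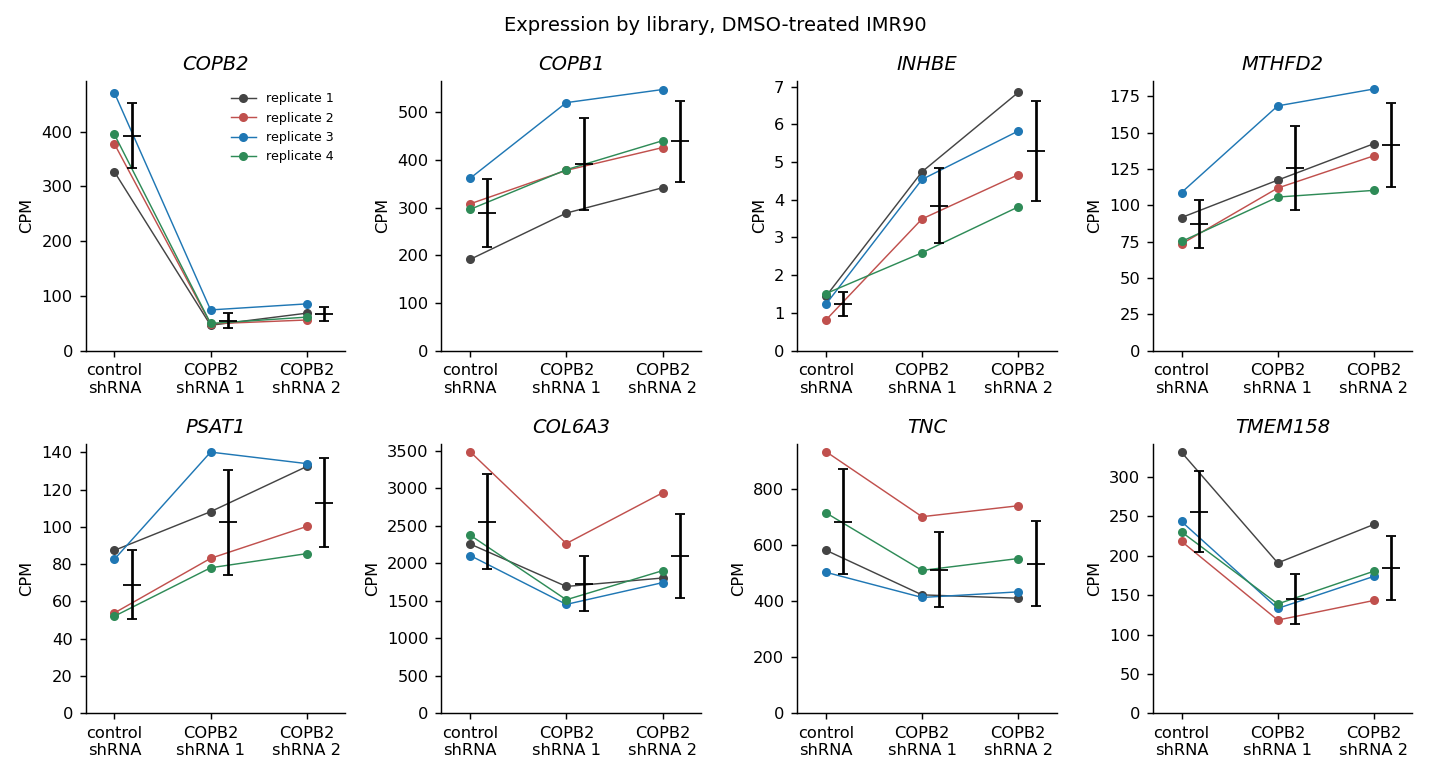
Level of 8 genes in the 12 libraries (vertical axis, CPM, from 0) for control shRNA, COPB2 shRNA 1 and COPB2 shRNA 2, with same-numbered replicates joined by a line and bars for the mean ± SD of each group of 4. COPB2 drops to between 46.5 and 85.6 CPM, while COPB1 and INHBE lie above the control library of the same number in 8 of 8 matched pairs.

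Beyond COPB2, the response was broad and shallow. With shRNA 1, 333 genes were called (2.41% of those tested), 114 higher (0.824%) and 219 lower (1.58%). With shRNA 2, 334 genes were called (2.42%), 142 higher (1.03%) and 192 lower (1.39%). For the mean of both shRNAs the count was 356 (2.57%), 128 higher (0.926%) and 228 lower (1.65%). The median size of these 356 changes was 0.255 on the log2 scale, and only 4 reached a log2 change of 1: COPB2, INHBE, PDE3B and SYT16, the last at under 2 CPM in every library and lower in 6 of 8 pairs. Both shRNAs called 92 genes on their own, 91 of them in the same direction (0.658% of those tested): 34 higher (0.246%) and 57 lower (0.412%). Because both shRNAs were set against the same control libraries, this agreement is a property of the way the genes were chosen and is not tested. In all 8 matched pairs, 503 genes were higher (3.64%) and 632 lower (4.57%), and 304 of the 356 called genes were among them.

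The number of calls rested on the replicate block. Without it, 2 genes were called for the mean of both shRNAs, COPB2 and INHBE. With the spread estimated over all 24 IMR90 libraries, bleomycin included, 15 were called, among them COPB1, INHBE, PCK2, SLC7A5, MTHFD2, CHAC1, TCEA1, MCU and ARL1, while no matrix gene named below was. Leaving out single libraries moved the count between 99 (without control replicate 2) and 711 (without control replicate 1). All 356 genes kept their direction in every alternative run.

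**Figure D2:**
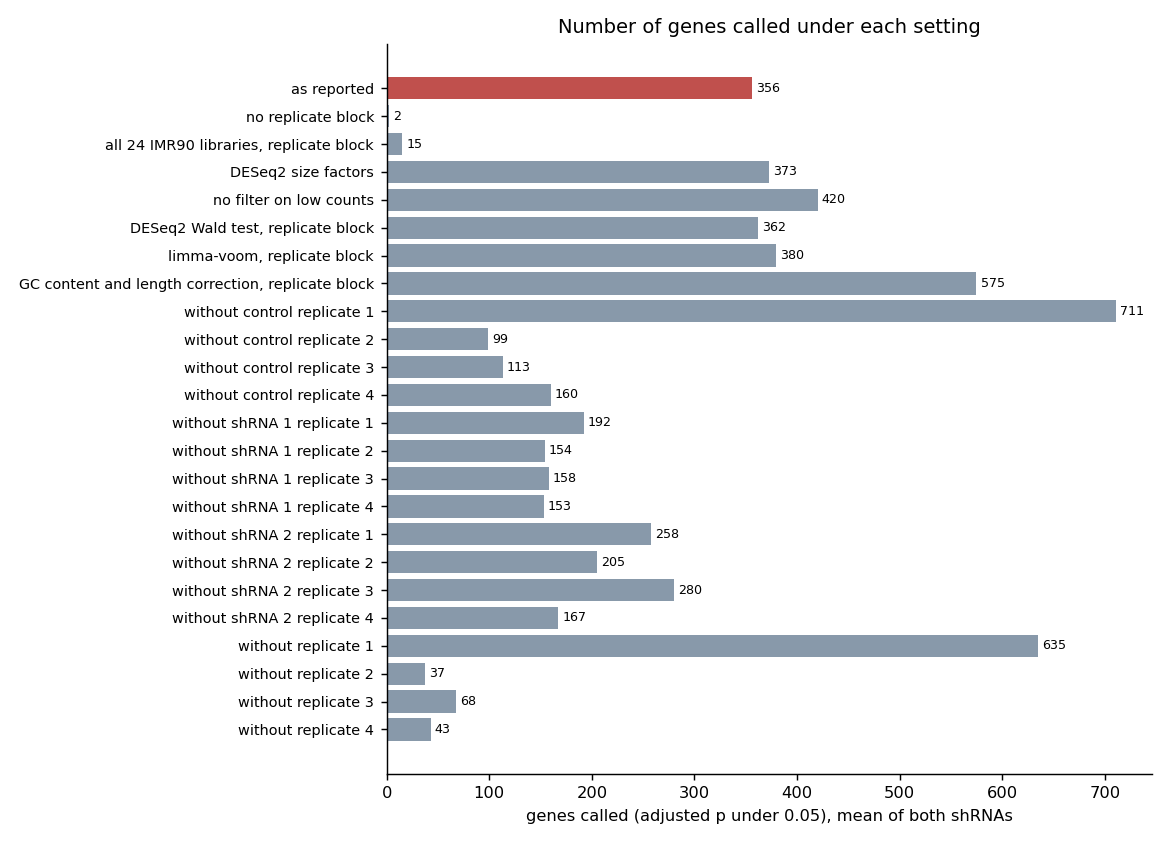
Number of genes called for the mean of both shRNAs (horizontal axis, bars from 0) in each processing setting, with the reported count of 356 in red. The shortest bars are 2 without the block and 15 with all 24 IMR90 libraries, and the longest is 711 without control replicate 1.

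Among the other coat subunits, COPB1 rose and the remaining 7 did not pass the test for the mean of both shRNAs. COPB1 (ENSG00000129083, GRCh37 chr11:14464986-14521573) encodes the beta subunit of the same coat. It stood at 192, 308, 362 and 297 CPM in control replicates 1 to 4, at 289, 378, 521 and 380 CPM with shRNA 1, and at 342, 426, 548 and 441 CPM with shRNA 2. The unmatched ranges overlapped, but each knockdown library was above the control library of its number in 8 of 8 pairs. The change was 0.44 ± 0.06 with shRNA 1 (adjusted p = 0.0011), 0.62 ± 0.06 with shRNA 2 (adjusted p = 4.8e-05) and 0.53 ± 0.05 for the mean (adjusted p = 4.9e-05), a 1.44-fold rise. The log2 changes of the other 7 subunit genes were small: -0.10 for COPA, 0.06 for COPG1, 0.02 for COPG2, 0.07 for ARCN1, -0.03 for COPE, 0.01 for COPZ1 and 0.07 for COPZ2. COPA, the subunit that pairs with the COPB2 protein in the outer layer of the coat, was lower in 7 of 8 pairs (adjusted p = 0.20, interval -0.18 to -0.02).

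For the mean of both shRNAs, none of 10 genes of the ARF cycle was called (median 0.01, against 0.01 for all genes tested), none of 19 retrieval and cargo receptors (median 0.09) and none of 16 genes of the COPII coat, which carries cargo out of the ER (median 0.10, 5 of 16 higher in all 8 pairs). The counts of 0 are from edgeR, and 3.64% of all genes tested were higher in all 8 pairs. At an unadjusted p under 0.05 the lists held 3, 6 and 6 genes, and the calls were 1, 2 and 1 by DESeq2 and 1, 1 and 0 by limma-voom. With shRNA 2 alone edgeR called 2, 2 and 1 genes of these lists, with ARF4 (0.27, adjusted p = 0.021) and ARFGAP3 (0.20, adjusted p = 0.037) those of the ARF cycle. With shRNA 1 edgeR, DESeq2 and limma-voom called 0 in each, and 1, 3 and 3 genes had an unadjusted p under 0.05. Of 34 Golgi tethers and SNAREs, 2 rose: GOLGA5, a golgin that tethers vesicles, by 0.28 ± 0.05 (adjusted p = 0.016), and COG5, a subunit of the conserved oligomeric Golgi complex, by 0.23 ± 0.04 (adjusted p = 0.015). The median of that list was 0.10, and 0.926% of all genes tested were called higher for the mean. With shRNA 1 alone neither passed (adjusted p = 0.18 for GOLGA5 and 0.11 for COG5) and 0 of 34 were called by edgeR, DESeq2 or limma-voom, with 8 at an unadjusted p under 0.05. With shRNA 2 alone 5 of 34 were called. The count of 2 for the mean went to 0 without the block, without control replicate 2 and without control replicate 3, and to 8 without control replicate 1. ARL1, a GTPase of the trans-Golgi, is not in these lists and was named because it was called. It was higher in 8 of 8 pairs and rose by 0.37 ± 0.04 (adjusted p = 0.00034). None of 8 tested genes of the Golgi stress list around CREB3 was called (median 0.02), nor by DESeq2 or limma-voom, and 0 had an unadjusted p under 0.05.

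**Figure D3:**
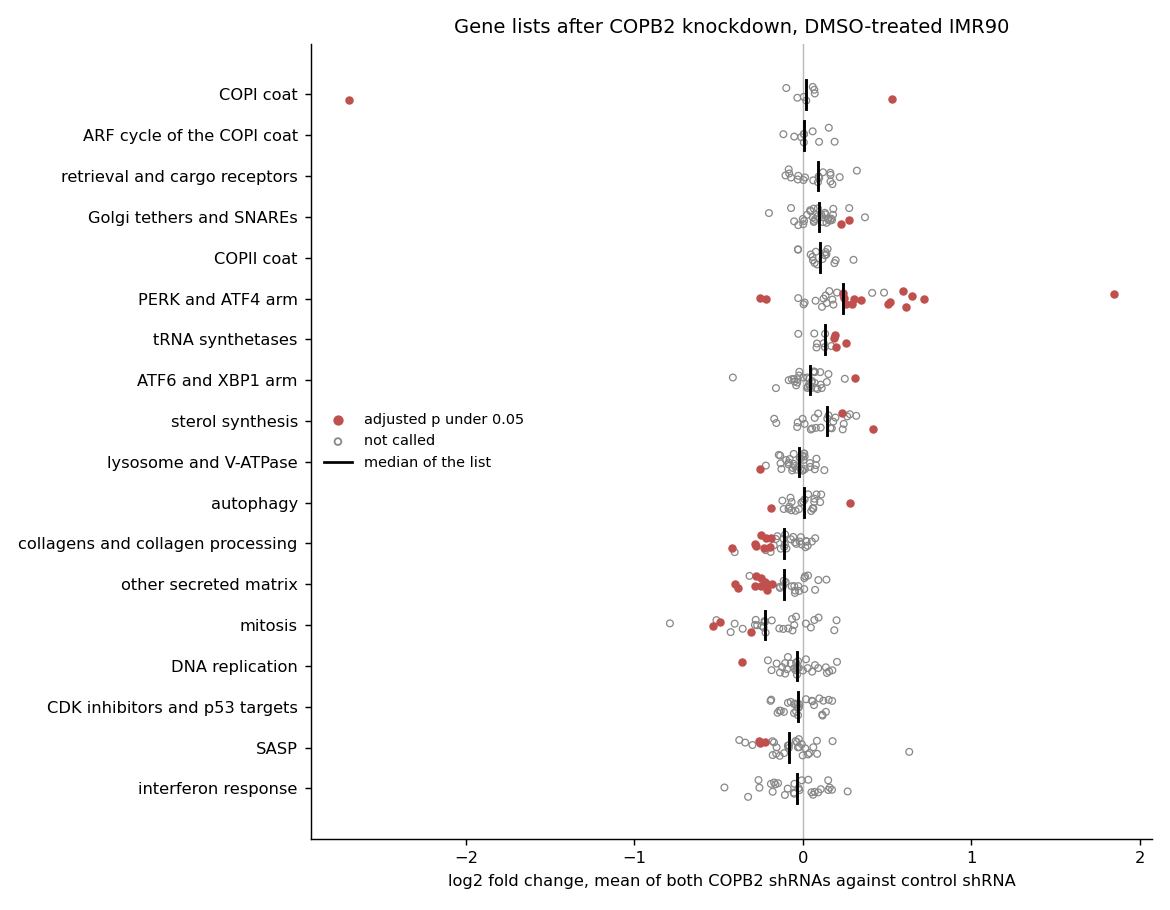
Log2 fold change of each tested member of 18 gene lists (horizontal axis, mean of both shRNAs), with called genes as filled points, the others open, and a black bar at the list's median. Among the lists drawn, the ATF4 list has the highest median, 0.24, and the mitosis list the lowest, -0.22.

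The list with the most higher genes was that of the PERK and ATF4 arm. Of its 30 tested members 13 rose and 2 fell, the median was 0.24 against 0.01 for all genes, and 14 were higher in all 8 matched pairs. Over all genes tested, 0.926% were called higher, 1.65% were called lower and 3.64% were higher in all 8 pairs. INHBE (ENSG00000139269, GRCh37 chr12:57846106-57853063), a secreted activin subunit, was the highest of these. Its level was 1.44, 0.811, 1.23 and 1.51 CPM in the control libraries, 4.74, 3.49, 4.54 and 2.60 CPM with shRNA 1, and 6.84, 4.66, 5.82 and 3.81 CPM with shRNA 2. The groups did not overlap, although the level was low, at 16 to 26 counts in the control libraries and 50 to 118 counts in the knockdown libraries. INHBE rose by 1.85 ± 0.18 (adjusted p = 4.7e-05), a 3.60-fold change, with 1.62 for shRNA 1 and 2.08 for shRNA 2.

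MTHFD2, PSAT1, PHGDH and SHMT2, enzymes of serine and one-carbon metabolism in this list, rose too. MTHFD2, a mitochondrial enzyme of folate metabolism, was at 91.6, 73.5, 109 and 75.1 CPM in control, 117, 112, 168 and 106 CPM with shRNA 1, and 142, 134, 180 and 110 CPM with shRNA 2. Only part of the unmatched ranges overlapped, and all 8 pairs were higher. Its change was 0.61 ± 0.05 (adjusted p = 3.3e-05). PSAT1, which makes the precursor of serine, was at 87.4, 53.9, 82.6 and 52.1 CPM in control, 108, 83.1, 140 and 78.1 CPM with shRNA 1, and 132, 100.2, 134 and 85.7 CPM with shRNA 2. PSAT1 also rose in 8 of 8 pairs, by 0.65 ± 0.06 (adjusted p = 4.7e-05). PHGDH, the first enzyme of serine synthesis, rose by 0.31 and SHMT2, which moves the carbon from serine to folate in mitochondria, by 0.24. ALDH1L2, a mitochondrial folate enzyme outside the list, rose by 0.49 ± 0.06 (adjusted p = 0.00067).

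SLC7A5 and CHAC1 of this list also rose. SLC7A5, the light chain of a transporter for large neutral amino acids, was at 76.4, 39.7, 50.4 and 43.2 CPM in control, 105, 63.7, 82.2 and 52.7 CPM with shRNA 1, and 111, 71.9, 85.8 and 59.0 CPM with shRNA 2, a rise of 0.59 ± 0.06 (adjusted p = 0.00012). CHAC1, which degrades glutathione, was at 19.2, 8.21, 9.76 and 8.08 CPM in control, 24.1, 12.1, 19.8 and 12.8 CPM with shRNA 1, and 28.3, 15.3, 21.5 and 12.9 CPM with shRNA 2. The ranges overlapped only through control replicate 1, and CHAC1 rose by 0.72 ± 0.09 (adjusted p = 0.00092). PCK2, the mitochondrial PEP carboxykinase, rose by 0.67 ± 0.06 (adjusted p = 3.6e-05), and ADM2, a secreted peptide of the adrenomedullin family, by 0.68 ± 0.09 (adjusted p = 0.00092). ALDH18A1 and GPT2, enzymes of proline and of alanine synthesis, rose by 0.27 ± 0.04 and 0.33 ± 0.05. PCK2, ADM2, ALDH1L2, ALDH18A1 and GPT2 were not in the list. They were named from the 34 genes called higher with both shRNAs, after their values were seen, so their calls add nothing to the list.

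CEBPG, TRIB3 and ATF4, regulators in the same list, rose for the mean of both shRNAs. CEBPG, a dimer partner of ATF4, rose by 0.52 ± 0.07 (adjusted p = 0.0017), TRIB3, a pseudokinase induced by ATF4 and CHOP, by 0.51 ± 0.06 (adjusted p = 0.00056), and ATF4 itself by 0.26 ± 0.04 (adjusted p = 0.0039). ATF4 stood at 315, 257, 277 and 255 CPM in control, 330, 282, 326 and 273 CPM with shRNA 1, and 398, 332, 393 and 317 CPM with shRNA 2. With shRNA 2 its lowest library exceeded the highest control library, and with shRNA 1 the ranges overlapped. DDIT3, which encodes CHOP, did not pass for the mean (0.24 ± 0.06, adjusted p = 0.054). It was at 32.6, 33.3, 29.98 and 32.8 CPM in control and 31.6, 35.7, 34.8 and 31.5 CPM with shRNA 1, but at 44.1, 42.2, 47.8 and 39.4 CPM with shRNA 2. The calls in this list differed by hairpin: 7 rose and 2 fell with shRNA 1, and 16 rose with shRNA 2. Over all genes tested these shares were 0.824%, 1.58% and 1.03%. In the direct comparison 10 of 30 were higher with shRNA 2 than with shRNA 1, ATF4, CEBPG, TRIB3 and DDIT3 among them. Of all 13827 genes tested 124 were.

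The 2 members that fell were CEBPB, a transcription factor of the same family as CEBPG, and GDF15, a secreted stress cytokine. CEBPB was at 199, 170, 143 and 137 CPM in control, 167, 113, 106 and 108 CPM with shRNA 1, and 188, 143, 140 and 131 CPM with shRNA 2. All 8 pairs were lower, by 0.25 on the log2 scale for the mean (-0.25 ± 0.05, adjusted p = 0.013). GDF15 also fell in 8 of 8 pairs (-0.22 ± 0.04, adjusted p = 0.018). With shRNA 2 alone neither passed (adjusted p = 0.34 and 0.44). The count of 13 higher members went to 1 without the replicate block and to 4 with all 24 IMR90 libraries, and lay between 9 and 15 when single libraries were left out.

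Genes that charge tRNAs were called with shRNA 2. Of 12 tRNA synthetases 4 rose for the mean of both shRNAs, where 0.926% of all genes tested were called higher. They were GARS1 (0.26 ± 0.04), EPRS1 (0.20 ± 0.04), TARS1 (0.19 ± 0.04) and IARS1 (0.18 ± 0.04), and the median of the list was 0.13. None was called with shRNA 1 by edgeR, DESeq2 or limma-voom (1 at an unadjusted p under 0.05), and 4 were called with shRNA 2 by edgeR, whose own median was 0.21 against 0.06 with shRNA 1. In the direct comparison of the shRNAs, 3 of 12 were higher with shRNA 2, against 124 of 13827 genes tested. The count of 4 fell to 1 without any 1 of 6 libraries, control replicates 3 and 4 included, and to 0 without the block.

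The promoters of the higher genes were searched for the composite site TGATGNAAN, to which ATF4 dimers are known to bind, on both strands of the window from 250 bases before to 50 bases after the start (RefSeq, GRCh38). It was present for 10 of 105 higher genes with a promoter sequence (9.52%), 6 of 179 lower genes (3.35%) and 303 of 10777 genes tested (2.81%). The windows around 4 of the 10 are printed as examples in the direction of the gene, with the match on either strand in capitals:
CHAC1, chr15:40953251-40953279: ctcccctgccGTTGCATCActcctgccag
CEBPG, chr19:33374061-33374089: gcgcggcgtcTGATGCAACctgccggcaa
HERPUD1, chr16:56931955-56931983: gacgcggcggGTTGCATCAgcccgtgccc
IARS1, chr9:92293693-92293721: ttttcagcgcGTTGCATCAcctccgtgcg
The other 6 were GARS1, TARS1, GPX8, SLC1A4, SLC1A5 and SLC7A1. The other 2 motifs searched were the ER stress element (CCAAT and CCACG with 9 bases between them) and the cyclic AMP response element TGACGTCA. The first was present for 2 of 105 higher genes (1.90%), EIF2A and SERP1, whose promoters share the 1 matching stretch on opposite strands, and for 0.148% of genes tested. The second was present for 2 of 105 higher genes (1.90%) and for 3.86% of genes tested. A match is a description of the letters in the window and not evidence of binding.

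In the lists of other stress responses few genes were called for the mean of both shRNAs, as among all genes tested (2.57%). Such counts do not set these lists apart from other genes. Of 34 tested genes of the ATF6 and XBP1 arm 1 rose, HERPUD1, a component of ER-associated degradation that ATF4 also induces, and the median was 0.04. HERPUD1 was at 124, 91.2, 95.7 and 91.5 CPM in control, 134, 105, 128 and 107 CPM with shRNA 1, and 154, 117, 146 and 108 CPM with shRNA 2, a rise of 0.31 ± 0.05 (adjusted p = 0.0064) in 8 of 8 pairs. HSPA5, which encodes the ER chaperone BiP, was at 767, 706, 885 and 632 CPM in control, 809, 680, 828 and 659 CPM with shRNA 1, and 863, 752, 1013 and 683 CPM with shRNA 2. Its groups overlapped, and the interval of its change ran from -0.02 to 0.16. XBP1 changed by 0.03 (interval -0.06 to 0.11) and DNAJB9, an ER co-chaperone under XBP1, by 0.25 (interval 0.03 to 0.47, adjusted p = 0.23). XBP1 was higher with shRNA 2 than with shRNA 1 (0.28 ± 0.05, adjusted p = 0.0078), at -0.12 and 0.17 against control. None of 13 cytosolic heat shock genes was called by edgeR (median -0.05), 2 had an unadjusted p under 0.05, and DESeq2 and limma-voom each called 1.

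Further genes were higher for the mean of both shRNAs. TCEA1, a transcription elongation factor, rose by 0.64 ± 0.06 (adjusted p = 3.6e-05), from 22.1, 31.4, 44.8 and 29.9 CPM in control to 34.7, 42.4, 68.7 and 44.1 CPM with shRNA 1 and 41.6, 50.1, 68.0 and 48.5 CPM with shRNA 2. PDE3B, a cyclic nucleotide phosphodiesterase, was among the largest changes but was low, at 1.00, 4.10, 3.52 and 4.88 CPM in control, 4.00, 10.3, 7.80 and 8.41 CPM with shRNA 1, and 3.26, 8.88, 6.07 and 7.57 CPM with shRNA 2 (1.07 ± 0.13, adjusted p = 0.00058). MCU, the pore of the mitochondrial calcium uniporter, separated completely: 36.1, 28.98, 32.3 and 35.7 CPM in control against 45.1, 43.8, 50.3 and 49.0 CPM with shRNA 1 and 46.5, 43.2, 44.7 and 47.6 CPM with shRNA 2. The change in MCU was 0.48 ± 0.06 (adjusted p = 0.00034). HS3ST3B1, a heparan sulphate sulphotransferase of the Golgi, lay at 5.87 to 8.91 CPM in control and 9.32 to 13.6 CPM across the knockdown libraries, again without overlap (0.55 ± 0.09, adjusted p = 0.0043). LRRN3, a leucine-rich repeat protein, was named by the rule that asks for 8 of 8 pairs higher, so that count is no separate result. It missed the threshold (0.48 ± 0.12, adjusted p = 0.051). Of 25 tested genes of sterol synthesis 2 rose, TMEM97 (0.42 ± 0.10) and SQLE (0.23 ± 0.05), with a median of 0.15. Over all genes tested, 0.926% were called higher for the mean. TMEM97 passed with neither shRNA alone (adjusted p = 0.060 and 0.065), and SQLE passed with shRNA 2 but not with shRNA 1 (adjusted p = 0.0013 and 0.83). Of 16 immediate early genes FOS (0.45 ± 0.11) and EGR1 (0.29 ± 0.05) rose. FOS passed with shRNA 1 but not with shRNA 2 (adjusted p = 0.037 and 0.13).

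Among the lists, those of secreted matrix held the most lower genes. Of 33 genes for collagens and their processing 8 fell and none rose, with a median of -0.11 and 9 lower in all 8 pairs. Of 29 tested genes of other secreted matrix 10 fell and none rose, with a median of -0.11 and 11 lower in all 8 pairs. Over all genes tested, 1.65% were called lower for the mean and 4.57% were lower in all 8 pairs. By hairpin, edgeR called 8 collagen and 11 other matrix genes with shRNA 1, and 5 and 4 with shRNA 2. Only 4 genes of each list were called with both shRNAs in the same direction. COL6A3, a chain of type VI collagen (GRCh37 chr2:238232646-238322971), stood at 2257, 3486, 2104 and 2375 CPM in control, 1691, 2263, 1452 and 1514 CPM with shRNA 1, and 1804, 2938, 1742 and 1901 CPM with shRNA 2. The unmatched ranges overlapped and every pair was lower, with a change of -0.42 ± 0.04 (adjusted p = 0.00011). THBS2, a matricellular thrombospondin, was at 182, 254, 155 and 198 CPM in control, 125, 155, 107 and 138 CPM with shRNA 1, and 164, 203, 135 and 169 CPM with shRNA 2. THBS2 changed by -0.40 ± 0.04 (adjusted p = 7.3e-05) and TNC, the matrix glycoprotein tenascin-C, by -0.38 ± 0.04 (adjusted p = 0.00021).

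Fibrillar collagens and fibronectin fell as well. COL1A1 changed by -0.29 ± 0.05 (adjusted p = 0.013), COL1A2 by -0.25 ± 0.05 (adjusted p = 0.020) and COL3A1 by -0.20 ± 0.05 (adjusted p = 0.038), each lower in 8 of 8 pairs. FN1 changed by -0.18 ± 0.04 (adjusted p = 0.045). With shRNA 2 alone these 4 did not pass, at -0.18, -0.17, -0.13 and -0.13. The other lower genes included LOXL1 and LOXL2, which cross-link collagen, COL12A1, COL15A1, and LTBP1 and LTBP2, of the latent TGF-beta binding protein family. The rest were TIMP1 and TIMP2, inhibitors of matrix proteases, VCAN, FBLN1 and TGFBI. VCAN, the proteoglycan versican, fell with shRNA 1 (-0.53 ± 0.08) and was at -0.02 with shRNA 2. Both lists had 0 calls without the block (edgeR) and with all 24 IMR90 libraries. Leaving out control replicate 2 left 2 collagen genes and 3 of the other matrix genes, and leaving out control replicate 1 gave 18 and 13.

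**Figure D4:**
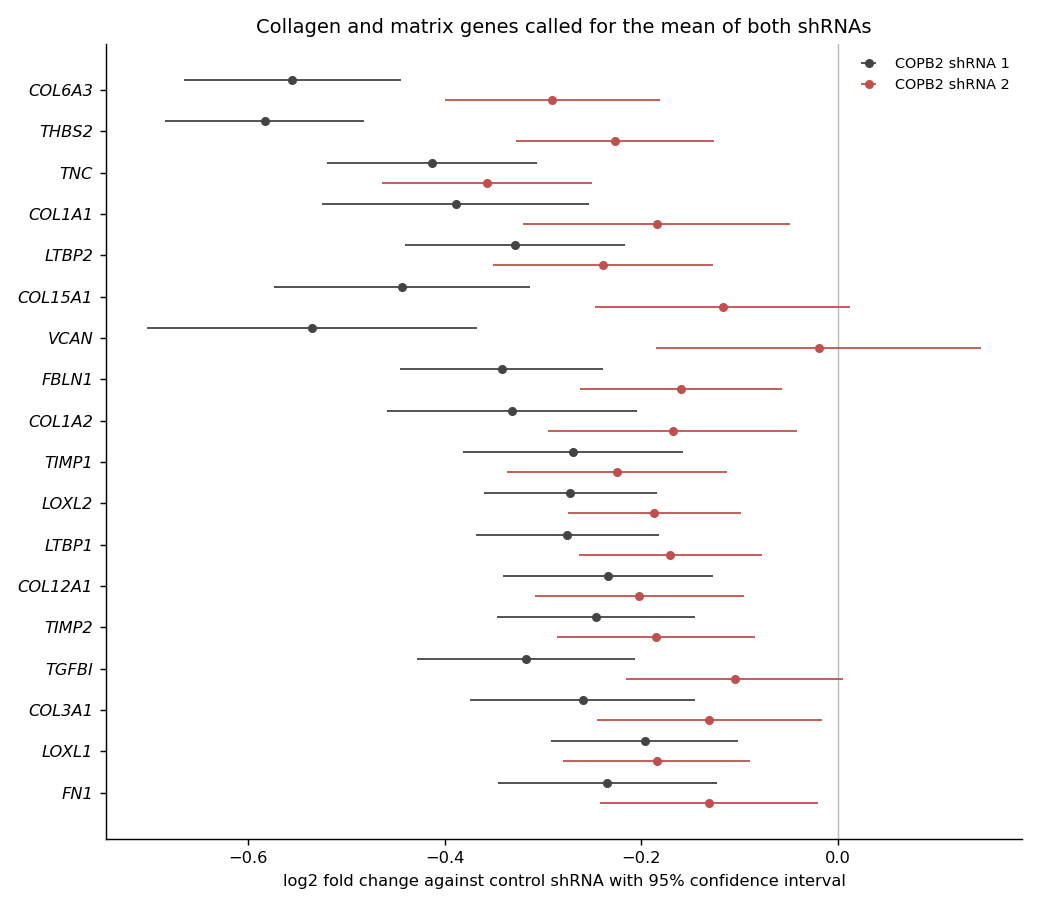
Log2 fold change against control shRNA (horizontal axis, with 95% confidence interval) of the 18 lower collagen and matrix genes, for shRNA 1 and shRNA 2 separately. All points lie below 0, although 3 intervals with shRNA 2 reach it, and THBS2, COL6A3 and VCAN lie further from 0 with shRNA 1 than with shRNA 2.

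FLNA, MYH9, MYL6 and ACTB, genes of the actin cytoskeleton that are in no list and were chosen after their values were seen, fell with each shRNA. FLNA, which cross-links actin filaments, changed by -0.33 ± 0.05 (adjusted p = 0.0039), MYH9, the heavy chain of non-muscle myosin, by -0.29 ± 0.04 (adjusted p = 0.0036), MYL6, a myosin light chain, by -0.26 ± 0.05 (adjusted p = 0.014) and ACTB, cytoplasmic beta-actin, by -0.23 ± 0.04 (adjusted p = 0.012). These 4 were lower in 8 of 8 pairs. Of 10 contractile markers 2 fell, TAGLN (-0.24 ± 0.05) and TPM2 (-0.23 ± 0.05), where 1.65% of all genes tested were called lower. ACTA2, smooth muscle actin, and MYL9, a regulatory myosin light chain, did not pass (-0.19 and -0.15, adjusted p = 0.053 and 0.11). The count of 2 went to 0 without the block and lay between 0 and 3 when single libraries were left out, with 0 without control replicate 2, 3 or 4. The 228 lower genes had a median GC content of 55.1% and the 128 higher genes 43.7%, against 47.9% for all genes tested, so direction went with GC content. With a correction for GC and length 575 genes were called in all, and 8 collagen genes and 10 other matrix genes were lower and 18 genes of the ATF4 list higher. The part of GC content was not tested.

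Lower genes with at least 100 mean counts and 8 of 8 pairs lower were taken by the smaller change of both shRNAs, after COPB2. TMEM158, a membrane protein first described as RAS-induced, was at 331, 218, 243 and 230 CPM in control, 191, 118, 133 and 139 CPM with shRNA 1, and 240, 143, 174 and 180 CPM with shRNA 2. With shRNA 1 the highest library was below the lowest control library, and the change for the mean was -0.65 ± 0.04 (adjusted p = 7e-07). AHNAK2, a large scaffold protein, changed by -0.65 ± 0.12 (adjusted p = 0.012) and SYT7, a synaptotagmin of lysosome exocytosis, by -0.60 ± 0.11 (adjusted p = 0.0093). GDF5, a secreted growth factor of the BMP family, changed by -0.53 ± 0.05 (adjusted p = 3.6e-05), NPTX1, a secreted pentraxin, by -0.52 ± 0.06 (adjusted p = 0.00014), and LYPD1, a GPI-anchored protein, by -0.53 ± 0.09 (adjusted p = 0.0044). IL32, a cytokine, changed by -0.39 ± 0.06 (adjusted p = 0.0018), FSD1L by -0.53 ± 0.12 (adjusted p = 0.025) and CPNE7, a copine, by -0.46 ± 0.09 (adjusted p = 0.013). With shRNA 2 alone FSD1L and CPNE7 did not pass (adjusted p = 0.091 and 0.074). RPLP0P2, a pseudogene copy of RPLP0 whose reads the counting could split, was below that count minimum and is uncertain, at -0.75 with each shRNA (adjusted p = 0.027 and 0.032).

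Among the lists of growth and survival, those of mitosis, DNA replication and the BCL2 family held lower genes for the mean. Over all genes tested, 1.65% were called lower for that mean. Of 30 mitosis genes 3 fell, with a median of -0.22: CDC20, an activator of the anaphase-promoting complex (-0.53 ± 0.12, adjusted p = 0.029), the kinesin KIF20A (-0.49 ± 0.12, adjusted p = 0.047) and the spindle protein PRC1 (-0.31 ± 0.08, adjusted p = 0.048). CDC20 was at 10.7, 5.27, 8.001 and 4.83 CPM in control, 8.40, 4.43, 6.14 and 5.50 CPM with shRNA 1, and 4.89, 2.83, 3.85 and 4.20 CPM with shRNA 2. No mitosis gene was called with shRNA 1 by edgeR, DESeq2 or limma-voom (3 at an unadjusted p under 0.05). With shRNA 2, edgeR called 4, limma-voom 3 and DESeq2 0, 15 of 30 had an unadjusted p under 0.05 against 17.6% of all genes, and CDC20 differed between them (-0.62 ± 0.14, adjusted p = 0.041). For the mean, limma-voom called 3 and DESeq2 0, and 14 of 30 had an unadjusted p under 0.05 against 16.5% of all genes. Leaving out any 1 of 7 libraries, control replicates 2 and 3 included, left 0 calls in this list. Of 30 DNA replication genes RRM2, a subunit of ribonucleotide reductase, fell (-0.36 ± 0.09, adjusted p = 0.044), with adjusted p = 0.33 for shRNA 1 and 0.021 for shRNA 2. This list had 0 calls by DESeq2 (1 gene at an unadjusted p under 0.05 by edgeR), without the block and in 11 of 12 fits that left out 1 library, the exception being the one without control replicate 2. None of 28 CDK inhibitors and p53 targets was called for the mean by edgeR, DESeq2 or limma-voom (7 at an unadjusted p under 0.05), and CDKN1A fell with shRNA 1 (-0.26 ± 0.06, adjusted p = 0.022) but not with shRNA 2 (interval -0.12 to 0.12). Of 14 tested BCL2 family genes BCL2L1, which encodes BCL-XL, and BOK each fell by 0.18 on the log2 scale (adjusted p = 0.040 and 0.038). BCL2L1 passed with neither shRNA alone (adjusted p = 0.069 and 0.082) and BOK with shRNA 2 only (adjusted p = 0.11 and 0.049). No gene of this list was called by edgeR without the block, with all 24 IMR90 libraries or in any of the 12 fits that left out 1 library.

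No tested gene of the secretory or interferon lists was called higher for the mean of both shRNAs. Over all genes tested, 0.926% were called higher and 1.65% lower for that mean. Of 43 genes of the senescence-associated secretory phenotype (SASP) 32 were expressed enough to test, 3 fell and none rose, and the median was -0.08. The 3 were the protease PLAU (-0.26 ± 0.04) and the IGF-binding proteins IGFBP2 (-0.25 ± 0.05) and IGFBP4 (-0.22 ± 0.04). PLAU and IGFBP4 passed with each shRNA, and IGFBP2 with shRNA 1 but not with shRNA 2 (adjusted p = 0.018 and 0.074). IL6 had 85 to 164 counts and CXCL8 13 to 51 counts across the 12 libraries. None of 28 tested interferon response genes was called by edgeR, DESeq2 or limma-voom (median -0.04, 3 at an unadjusted p under 0.05). Of 34 tested genes of the lysosome and V-ATPase 1 fell, CTSK, a collagen-degrading cathepsin (-0.26 ± 0.05). With 2.57% of all genes called, a count of 1 does not set this list apart. CTSK passed with shRNA 1 but not with shRNA 2 (adjusted p = 0.0055 and 0.065). Of 24 autophagy genes the receptors TAX1BP1 and SQSTM1 moved in opposite directions (0.28 ± 0.06 and -0.19 ± 0.04). TAX1BP1 passed with shRNA 2 only (adjusted p = 0.16 with shRNA 1 and 0.014 with shRNA 2). SQSTM1 passed with shRNA 1 only (adjusted p = 0.0046 with shRNA 1 and 0.25 with shRNA 2).

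The shRNAs also differed from each other. In the direct comparison 264 genes were called (1.91% of those tested), 124 higher and 140 lower with shRNA 2, and 10 of them were among the genes called with both shRNAs. COL8A2, a collagen of basement membranes, was the 1 gene called in opposite directions. It was at 9.37, 11.7, 9.60 and 10.4 CPM in control, 16.3, 17.02, 13.5 and 18.7 CPM with shRNA 1, and 6.39, 7.27, 7.55 and 7.79 CPM with shRNA 2. No 2 of the 3 groups overlapped, and the difference between shRNAs was -1.17 ± 0.10 (adjusted p = 0.00012). HMGA2, a chromatin protein, was lower with shRNA 1 (-0.42 ± 0.06) and at 0.15 with shRNA 2. MIR30A is listed at 479, 371, 377 and 344 CPM in control, 560, 520, 486 and 513 CPM with shRNA 1, and 354, 350, 338 and 352 CPM with shRNA 2, and the hairpin backbone is itself derived from miR-30. For 10353 genes (74.9%) the interval of the difference between shRNAs stayed within 0.5 of 0 on the log2 scale.

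Matches to the guide seeds in 3′ UTRs were counted as a feature the choice of genes had not used. The site for shRNA 1 reads ATATTTA and that for shRNA 2 reads TTCAATT. Of 12500 genes with an annotated 3′ UTR, 2744 held only the first. Their median change was 0.00 with shRNA 1 and 0.06 with shRNA 2, and 56 were called lower with shRNA 1, or 2.04%, against 1.70% of all 12500. The 765 genes with only the second site had a median of 0.03 with shRNA 2, and 19 were called lower with shRNA 2, or 2.48%, against 1.49%. UTRs with a site were longer (medians 2395 and 2260 bases against 1383) and came from genes of lower GC content (42.8% and 44.1% against 47.7%), and the part of either was not tested.

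The same genes were read in libraries that had no part in choosing them. In the 9 ER:RAS libraries given DMSO, all 34 genes higher with both shRNAs had a change above 0 (median 0.42), where 46.7% of all genes did. Of the 57 lower genes 54 were below 0 there (median -0.21), where 53.3% of all genes were. COPB2, the target of both hairpins, is among the 57. These libraries carried the same hairpins, so effects of COPB2 loss and other effects of the hairpins cannot be told apart by them. On their own they gave 1 called gene, COPB2 (0.00728% of 13728 tested), at -2.83 ± 0.09. In ER:RAS cells INHBE changed by 1.93, PCK2 by 1.01, SLC7A5 by 0.93, PSAT1 by 0.83 and MTHFD2 by 0.71, none of them called, and the ATF4 list had a median of 0.28. The collagen and other matrix lists had medians of 0.02 and 0.04 there, and COL6A3, THBS2 and COL1A1 stood at -0.08, -0.13 and 0.04. The difference in effect between ER:RAS and IMR90 cells was called for none of 14168 genes (0%, edgeR), with 874 at an unadjusted p under 0.05. No other tool was run for that difference, so the matrix genes were not shown to differ between the cell types.

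In bleomycin-treated cells 181 of 14783 genes were called (1.22%), 125 of them higher, in a fit of all 24 IMR90 libraries. The same fit called 15 genes in the growing cells. Their count of 356 came from the 12 libraries alone and is not to be set beside 181. Of the 34 higher genes 33 were above 0 after bleomycin and 19 were called, where 54.0% of all genes were above 0. Of the 57 lower genes, COPB2 among them, 44 were below 0 and 2 were called, where 46.0% of all genes were below 0. COPB2 changed by -2.24 ± 0.07. The ATF4 list had a median of 0.49 with 16 genes higher, against 4 in the growing cells in the fit of 24 libraries. TRIB3 changed by 1.17, DDIT3 by 0.90 and ATF4 by 0.69, against 0.51, 0.24 and 0.26 in the growing cells. The ATF6 and XBP1 list had a median of 0.22 with 5 genes higher, against 0 in the growing cells in the fit of 24 libraries. HSPA5 changed by 0.54 (adjusted p = 0.0042) against 0.07 in the growing cells. MCU, at 0.48 in growing cells, was at 0.04 after bleomycin (interval -0.12 to 0.20), and TMEM158 at -0.65 and 0.34. The difference between the settings was tested directly in all 24 libraries and was called for none of 14783 genes (0%, edgeR), with 909 at an unadjusted p under 0.05. The difference was 0.67 ± 0.13 for DDIT3 (adjusted p = 0.33), 0.48 ± 0.12 for HSPA5 (adjusted p = 0.47) and -0.43 ± 0.11 for MCU (adjusted p = 0.40). DESeq2's Wald test called 14 genes for this difference, DDIT3, HERPUD1, MCU, TMEM158 and COPB2 among them.

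**Figure D5:**
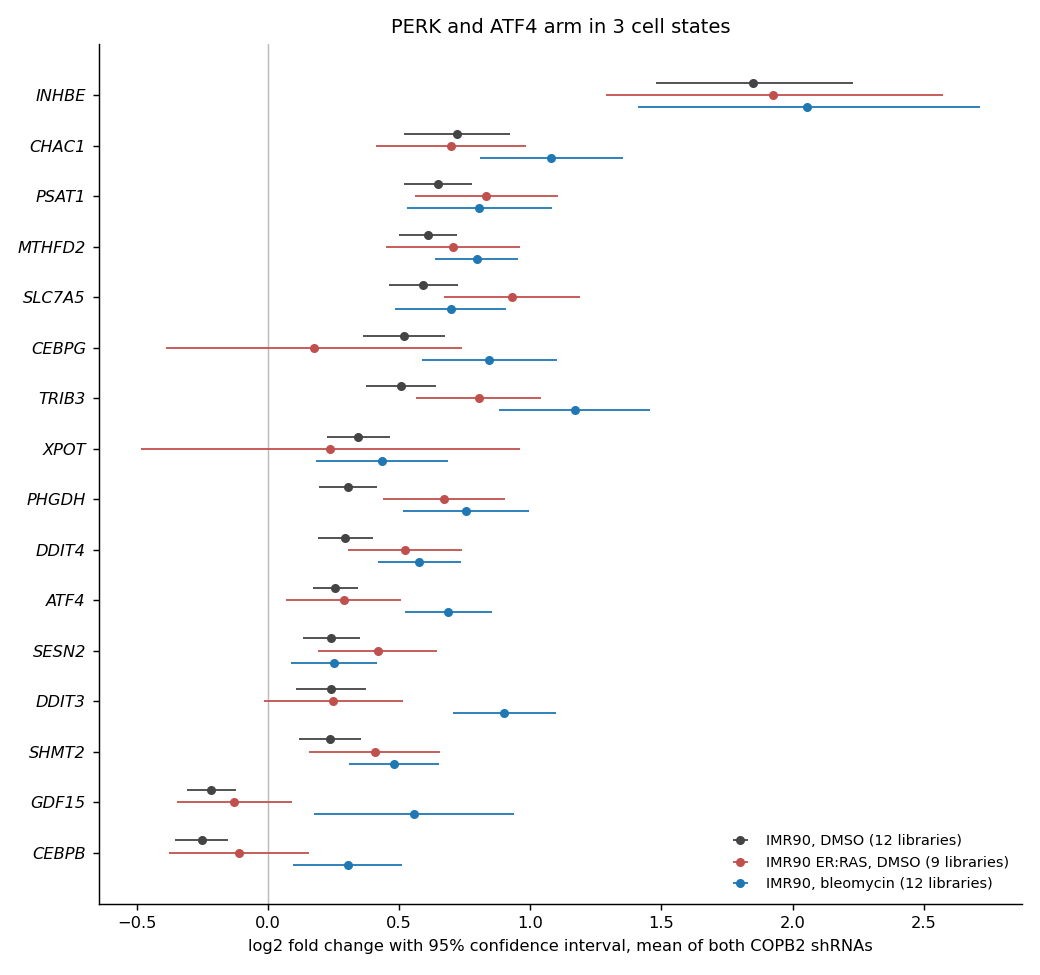
Log2 fold change (horizontal axis, mean of both shRNAs, with 95% confidence interval) of 16 genes of the ATF4 list in DMSO-treated IMR90, bleomycin-treated IMR90 and DMSO-treated ER:RAS cells. In growing IMR90 cells INHBE lies at 1.85 and ATF4 at 0.26, and after bleomycin they lie at 2.05 and 0.69.

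A list of 8 genes called after the knockdown in senescent cells of this series was also read in the growing cells. As it was chosen on this series it is not independent evidence of a direction. INHBE, MTHFD2, HERPUD1 and ATF4 rose among the 7 tested, with a median of 0.26. ATP6V0D2, a subunit of the V-ATPase, had 0 to 2 counts in each of the 12 libraries and could not be tested at this depth.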

How the data were processed

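Poly(A)-selected RNA from the IMR90 cells was sequenced, and the authors deposited 1 table of raw counts per gene for all 42 libraries. The submitters' processing notes name DRAGEN, STAR 2.7.8a, DESeq2 1.32.0 and hg38, whereas the study's methods name another aligner and build for RNA-seq, and which of them gave the deposited counts is not stated. Strand use in counting is not given in the sources used here. The table lists no mitochondrial transcripts, so the list of 13 mitochondrial mRNAs could not be read. The counts of the 12 libraries, 16199276 to 23597310 each, were scaled by TMM and filtered by filterByExpr, which left 13827 genes. These were fitted in edgeR 4.0.16 (limma 3.58.1, R 4.3.3) by the robust two-sided quasi-likelihood test with the replicate number as a block. CPM are counts relative to the TMM-scaled library total. They compare 1 gene between libraries, not 2 genes, since they are not divided by length.

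The replicate numbers come from the labels. They were taken to pair the libraries because all 12 same-numbered pairs correlated above 0.1 (median 0.648, against -0.110 for different numbers). The fit of the bleomycin and DMSO libraries together had the number within treatment as a block. Genes were named by a rule: COPB2, COPB1 and all coat subunits, called genes, the 10 highest and 10 lowest genes by the smaller change of both shRNAs with at least 100 mean counts and the same sign in 8 of 8 pairs, and the members with the largest change of each of the 29 lists. The members and lists were chosen with earlier results of these data known. Alternatives were no block, all 24 IMR90 libraries, DESeq2 size factors, no filter, DESeq2 1.42.0, limma-voom, a GC and length correction, and leaving out libraries. Only the edgeR fit of the 12 libraries was tested on simulated data. Guide sequences are those the study lists, matched to the GRCh37 annotation. Of 28266 symbols listed, 25499 matched that annotation and 18292 a RefSeq promoter. Counting precision and library spread are both covered by the intervals, which are 95% intervals.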

Additional observations from a re-analysis of the deposited data

Results flagged for a closer look

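In the 84 groups of 4 libraries formed by 28 named genes, 6 libraries lay far from the other 3 of their group by Dixon's criterion, which chance alone meets in about 1 of 20 groups. Of these 6, 3 were control replicate 1: CHAC1 at 19.2 CPM, LYPD1 at 21.1 CPM and HERPUD1 at 124 CPM, all the highest of their group. COPB2 was highest in shRNA 1 replicate 3, at 74.5 CPM. AHNAK2 was lowest in shRNA 2 replicate 3, at 4.74 CPM, and COL6A3 was highest in shRNA 2 replicate 2, at 2938 CPM, where its control library of the same number was also the highest of its group. The part of single libraries in these values was not tested beyond leaving them out.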

How the results depend on the processing

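For shRNA 1, shRNA 2, the mean of both and the difference between shRNAs, calls numbered 1, 2, 2 and 1 without the replicate block, 6, 10, 15 and 6 with all 24 IMR90 libraries, and 6, 4, 4 and 4 with an absolute log2 change of at least 1. With the GC and length correction they numbered 684, 400, 575 and 525. Leaving out libraries or replicate numbers gave 18 to 1056 calls with shRNA 1, 40 to 586 with shRNA 2, 37 to 711 for the mean and 3 to 1277 for the difference between shRNAs. The highest count for the mean came without control replicate 1, and the lowest without all 3 libraries of replicate 2. Leaving out whole replicate numbers was chosen after seeing the data. Members of the lists called numbered 2 without the block, 6 with all 24 IMR90 libraries and 22 to 104 when libraries were left out. Of the 20 highest and lowest genes named by rule, 1 was called without the block, 6 with all 24 IMR90 libraries and 17 to 20 without single libraries. The effect in bleomycin minus that in DMSO was called for 14 genes by DESeq2's Wald test. DESeq2 size factors, no filter, DESeq2 and limma-voom otherwise kept these counts within 1.5 times. No count of calls or called gene reversed. The medians of 6 lists close to 0 changed sign when single libraries were left out: -0.0152 to 0.0918 for the COPI coat, -0.0146 to 0.0324 for the ARF cycle, -0.00682 to 0.0342 for CREB3, -0.0170 to 0.0160 for autophagy, -0.0250 to 0.0380 for immediate early genes and -0.327 to 0.00615 for endothelial markers. The cause of the moves was not tested. At 4 libraries a group, a change of the median size among called genes, 0.255, compares with a median standard error of 0.0733 over all genes.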
